A study of Drosophila melanogaster with 2 samples.

Results

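Mitochondrial ribosomal protein genes were examined for binding of the transcription factor Single-minded (Sim) in Drosophila melanogaster embryos. The members were the protein-coding genes whose symbols begin with mRpL (large subunit, 47 genes) or mRpS (small subunit, 26 genes), which gave 73 of 13945 protein-coding genes. Chromatin immunoprecipitation followed by sequencing had been carried out on whole embryos collected 0 to 24 h after laying, in 1 group of 2 biological replicates. The flies were transgenic for Sim joined to eGFP, a green fluorescent protein, and an antibody against GFP was used for the precipitation, while the antibody field of the labels names sim. The labels name 1 strain for both replicates and do not state whether the flies also kept untagged Sim. Control chromatin named there was not analysed here, so no value below has a background from control chromatin beside it.

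Sim is a bHLH-PAS transcription factor and is best known for setting the fate of midline cells in the embryonic nerve cord. With its partner Tango it binds the core ACGTG. Mitochondrial ribosomes translate the few proteins encoded by mitochondrial DNA, all of them parts of the respiratory chain, whereas the proteins of these ribosomes are encoded in the nucleus and imported. The genes are expressed in nearly all cells and are not known as midline genes, and in whole embryos a peak cannot be assigned to a cell type.

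The lists of both replicates pooled held 2682 reproducible peaks, the authors' optimal list, selected by the irreproducible discovery rate (IDR), which measures how well peak ranks repeat between sets of calls. Thresholded lists of the replicates alone held 1071 peaks in replicate 1 and 1676 in replicate 2. Each peak carries a signal value, the strength given by the authors' peak caller. Its normalization and the sequencing depth are unknown, so a signal value is read here within its own list, and for the peaks within 1 kb of a member its rank in the list is given beside it. As a check of the precipitated factor, a peak of signal value 212 lay 4154 bp from the sim transcription start site (TSS) and was in both replicates' lists. The strongest peak near the midline gene sli had 112 and was in the list of replicate 2 but not of replicate 1. The midline gene wrapper had a peak of 72.2, in neither replicate's list, whose nearest TSS was that of another gene, CG13506. The genes were proposed as a group because of peaks seen near them in these lists, and the peaks below were chosen by their presence in the optimal list, so the levels of the chosen peaks are a description.

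Near the TSS of mitochondrial ribosomal protein genes, 8 members had a summit within 500 bp. The bases around 7 of these summits are shown because the summits lay in sequence rich in A and T, and capitals mark the longest run made of A and T alone. Where runs tie, as at mRpS10 and mRpL24, the leftmost on the printed strand is marked. Each is the RefSeq Release 6 (dm6) sequence of the strand on which the gene lies, 5′ to 3′. The windows reach 50 bp either side of the summit, except at mRpL23, where the window begins at the 5′ border of the intron. They lie at chr2L:13835433-13835533 (minus strand, mRpS23), chr3R:15229489-15229589 (plus strand, mRpS10), chr3L:2373542-2373596 (minus strand, mRpL23), chr2L:4945458-4945558 (minus strand, mRpL24), chr3L:13018119-13018219 (minus strand, mRpL20), chr2L:4850489-4850589 (minus strand, mRpS2) and chr3R:31252713-31252813 (plus strand, mRpL32).
mRpS23: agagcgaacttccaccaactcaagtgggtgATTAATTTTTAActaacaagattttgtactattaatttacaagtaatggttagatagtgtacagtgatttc
mRpS10: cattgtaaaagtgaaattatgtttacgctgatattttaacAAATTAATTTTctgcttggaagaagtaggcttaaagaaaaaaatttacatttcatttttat
mRpL23: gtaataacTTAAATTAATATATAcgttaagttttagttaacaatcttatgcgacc
mRpL24: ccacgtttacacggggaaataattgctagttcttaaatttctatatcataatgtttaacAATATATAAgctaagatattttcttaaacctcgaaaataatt
mRpL20: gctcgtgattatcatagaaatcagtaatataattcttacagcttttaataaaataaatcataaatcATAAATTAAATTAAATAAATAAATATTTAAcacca
mRpS2: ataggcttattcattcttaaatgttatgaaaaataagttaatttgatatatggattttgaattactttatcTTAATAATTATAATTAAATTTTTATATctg
mRpL32: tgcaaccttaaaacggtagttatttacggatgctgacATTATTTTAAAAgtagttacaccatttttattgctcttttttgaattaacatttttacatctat
The window at mRpL20 held an unbroken run of 30 A and T bases and that at mRpS2 a run of 27. The median of the longest run was 13 for the 8 summits, against 9 for all 2682, where the highest was 41. The summit at mRpL41, which is not shown, had a run of 14. GC content was lowest at mRpS2, with 15.8%, and highest at mRpS23, with 31.7%.

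Sim peaks lay next to a small number of mitochondrial ribosomal protein genes, and a few of these peaks were among the strongest of the data set. A summit lay within the gene or 1 kb either side in 10 of 73 members (13.7%), against 16.5% of all protein-coding genes. Within 5 kb the count was 29 members (39.7%), against 30.0% of all genes. The member's own TSS was the nearest one to a summit within 5 kb in 4 members (5.48%), against 12.4% of all genes. With support in both replicates' lists this left 3 members (4.11%), against 4.73%. A summit lay within 500 bp of the member's own TSS in 8 members (11.0%), against 9.37%. By these counts in the optimal list the members' share was near that of all genes at 1 kb, at the TSS and with support in both replicates. At 1 kb and at the TSS this depended on the list, as given in the last section.

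Gene length bears on such windows. Members had a median length of 909 bp (390 to 13391 bp), against 2166 bp for all genes. Among the 4647 genes of at most 1464 bp, the length that 90% of members do not exceed, 7.27% had a summit within 1 kb, 20.8% within 5 kb and 4.54% within 500 bp of an own TSS. The 65 members of that length had shares of 15.4% at 1 kb, 44.6% at 5 kb and 12.3% at the TSS, each above the share of all genes of that length. For the nearest-TSS counts no share of all genes of that length was computed, so those comparisons are not matched for length.

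mRpS10, a protein of the small subunit with a counterpart in bacteria, had the strongest peak nearest to a member's own TSS. The pooled signal value was 575, rank 9 of 2682, with 254 in replicate 1 and 311 in replicate 2. The summit, at chr3R:15229539, lay between genes, 126 bp upstream of the mRpS10 TSS and 131 bp from that of Art3, an arginine methyltransferase gene transcribed the other way from a TSS 257 bp away. In the list of each replicate alone Art3 had the nearest TSS, 117 bp from the summit in replicate 1 and 127 bp in replicate 2, so the assignment to mRpS10 rests on the pooled summit.

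mRpL41, a large-subunit protein that bacteria lack, had a pooled signal value of 570.4, rank 11. Its replicates had 234 and 334. The summit lay between genes on arm 2R at position 15217764, 147 bp upstream of the mRpL41 TSS, and mRpL41 had the nearest TSS in the pooled list and in both replicates' lists. The head-to-head neighbour CG8079 starts 762 bp away.

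mRpL23, a large-subunit protein with a bacterial counterpart, had a pooled signal value of 326, rank 55, with 143 in replicate 1 and 181 in replicate 2. The summit, at chr3L:2373592, lay in an intron of mRpL23 itself, 86 bp downstream of the nearest mRpL23 TSS. In the replicates' own lists it lay 61 and 67 bp from that TSS, which stayed the nearest. CG9004 starts 24 bp from mRpL23 in the other direction. For these 3 genes both replicates called the peak, and its rank in the ranked list of each replicate was 67 or better.

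mRpL32, a large-subunit protein with a bacterial counterpart, was the other member with the nearest TSS, and its peak was weak. The pooled signal value was 66.5, rank 1687, with 36.4 and 34.7 in the replicates' ranked lists, and neither replicate's thresholded list held the peak. The summit lay 109 bp upstream of the mRpL32 TSS, between it and qless, a gene of coenzyme Q synthesis that starts 264 bp away.

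**Figure D1:**
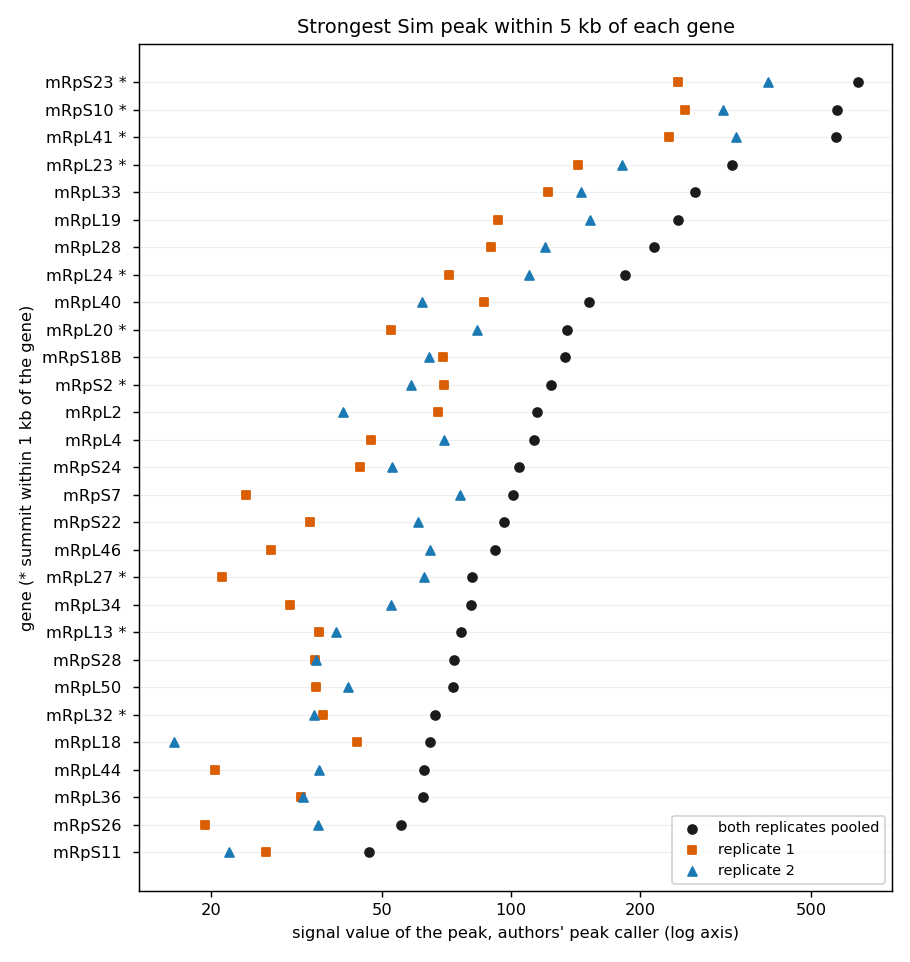
Signal value (log axis) of the strongest pooled peak within 5 kb of each of the 29 mitochondrial ribosomal protein genes that had one, with the value of the overlapping ranked peak in each replicate (squares, replicate 1; triangles, replicate 2). mRpS23, mRpS10 and mRpL41 stand at 570.4 or above in the pooled list, and both replicates order these 4 top genes, mRpL23 included, above all others.

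In 4 further members the own TSS lay within 500 bp of the summit but a head-to-head neighbour started nearer. mRpS23, a small-subunit protein without a bacterial counterpart, was beside the strongest of the peaks near members, at 643 and rank 4 of the list, with 245 in replicate 1 and 397 in replicate 2. The summit lay 411 bp upstream of mRpS23 and 81 bp from CenG1A, which encodes a GTPase-activating protein of Arf. The same peak also fell within 5 kb of PolG2, the accessory subunit of the mitochondrial DNA polymerase.

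mRpL24 had a peak of 184, rank 224, with 71.6 in replicate 1 and 110.1 in replicate 2. It lay 147 bp upstream of its TSS and 71 bp from betaggt-I, a subunit of a protein prenylating enzyme. mRpL20 had a peak of 135, rank 428, with 52.5 and 83.1 in the replicates. It lay 302 bp upstream and 97 bp from Icmt, a methyltransferase of prenylated proteins. mRpS2 had a peak of 124, rank 517, with 69.7 and 58.4 in the replicates. It lay 120 bp upstream and 102 bp from Mon1, a gene of endosome maturation. In replicate 1 alone the mRpS2 summit lay nearest to mRpS2, and in replicate 2 nearest to Mon1. All 4 of these peaks were in both replicates' lists.

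Summits within 1 kb of 3 members lay over 500 bp from the member's TSS, beyond its 3′ end. A peak of 80.9 (rank 1165) next to mRpL27 lay 7 bp from the TSS of RpL27A, a gene of the cytoplasmic ribosome. A peak of 76.4 (rank 1293) next to mRpL13 lay 119 bp from CG10602. A second peak of mRpL23, at 67.7 (rank 1624), lay 92 bp from CG8993. None of these 3 was in both replicates' lists.

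**Figure D2:**
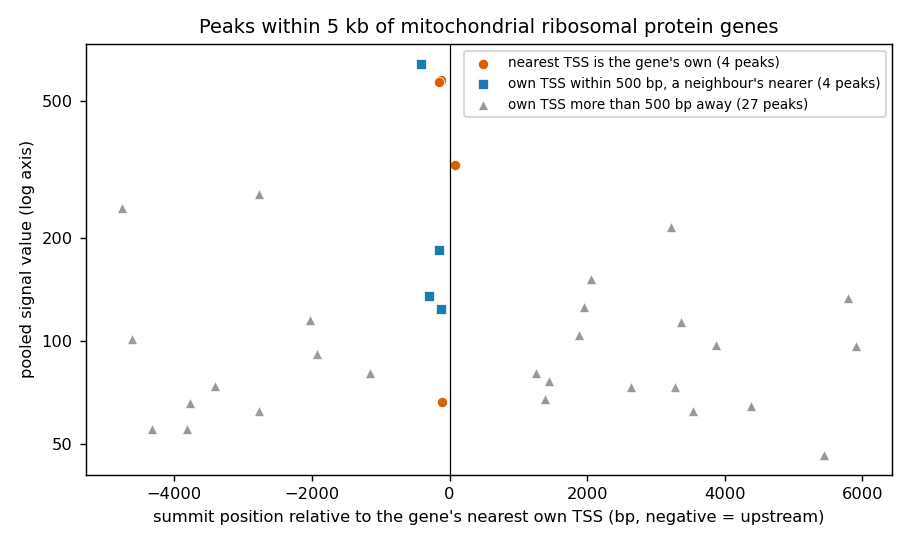
Pooled signal value (log axis) of the 35 peaks within 5 kb against the summit's position from the member's own TSS (bp, upstream negative). The 8 peaks within 500 bp hold the 4 highest values, and 7 of the 8 lie upstream of the TSS. Of all 1080 summits within 500 bp of a TSS, 815 (75.5%) lie upstream of the nearest one.

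The other 19 members with a summit had it 1 to 5 kb from the gene, and each of these summits had another gene's TSS nearest. Strongest were the peaks near mRpL33, of 268 in an intron of norpA (phospholipase C of phototransduction), near mRpL19, of 245 in an intron of CG8036, near mRpL28, of 215 by CG3792, and near mRpL40, of 152 by Irbp, the fly Ku70 homolog. Values between 101 and 133 were found near mRpS18B (Pyroxd1 nearest), mRpL2 (FoxK), mRpL4 (cact, the inhibitor of Dorsal), mRpS24 (TBC1d7) and mRpS7 (CG5096). Values between 46.5 and 96.4 were found near mRpS22 (RpL4), mRpL46 (PolD2), mRpL34 (Dg), mRpS28 (GEFmeso), mRpL50 (RpL18), mRpL18 (Nacalpha), mRpL44 (RpL35A), mRpL36 (Uba2), mRpS26 (CG13698) and mRpS11 (Keap1). A second peak within 5 kb was found for 6 members, namely mRpS23 (CG33307 nearest), mRpL41 (row), mRpL23 (CG8993), mRpL20 (CG11267), mRpL19 (p) and mRpL34 (Dg).

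In all, 31 of the 35 peaks had another gene's TSS nearest, and the 30 different genes concerned included 4 of the cytoplasmic ribosome. The window ended between mRpS18B, whose summit lay 4873 bp from the gene, and mRpL45, whose closest summit lay 5142 bp away with a signal value of 63.2 next to loco. By arm, 9 of 12 members on 2L had a summit within 5 kb, against 29.8% of all genes on that arm. The counts were 4 of 12 on 2R (against 30.0%), 7 of 17 on 3L (32.4%), 8 of 21 on 3R (31.1%) and 1 of 11 on X (26.2%), each a description of few genes. By subunit, 19 of 47 mRpL genes and 10 of 26 mRpS genes had one, against 30.0% of all genes. No summit lay within 5 kb of the other 44 members, which were mRpL1, mRpL3, mRpL9, mRpL10, mRpL11, mRpL12, mRpL14, mRpL15, mRpL16, mRpL17, mRpL21, mRpL22, mRpL30, mRpL35, mRpL37, mRpL38, mRpL39, mRpL42, mRpL43, mRpL45, mRpL47, mRpL48, mRpL49, mRpL51, mRpL52, mRpL53, mRpL54, mRpL55, mRpS5, mRpS6, mRpS9, mRpS14, mRpS16, mRpS17, mRpS18A, mRpS18C, mRpS21, mRpS25, mRpS29, mRpS30, mRpS31, mRpS33, mRpS34 and mRpS35.

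As a group, the peaks near members had higher signal values than the list as a whole and were held by both replicates' lists more often. This is a description without a test, since the genes were proposed because of peaks seen near them in these lists. Both replicates' lists held 16 of the 35 (45.7%), against 30.8% of the 2682 peaks. Replicate 1 alone held 2 (5.71%, against 7.38%), replicate 2 alone held 7 (20%, against 27.4%) and neither held 10 (28.6%, against 34.3%). The median signal value was 97.6, against 75.1, and 135 for the 11 peaks within 1 kb. The strongest 20 peaks of the list included 3 of the 35 (8.57%, against 0.746% of the list). The strongest 100 included 5 (14.3%, against 3.73%). A TSS lay within 500 bp of 30 of the 35 summits (85.7%), against 40.3% of all summits. Those 30 peaks had a median signal value of 102.6, against 77.4 for all 1080 peaks near a TSS. Both replicates' lists held 15 of them (50%), against 34.6%.

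Shared promoters were the common arrangement. A head-to-head neighbour, with a TSS on the other strand at most 1 kb upstream, was found for 58 of 73 members (79.5%), against 36.2% of all genes and 55 of 92 cytoplasmic ribosomal protein genes (59.8%). The median distance between both starts was 283 bp for members and 298 bp for all genes with such a neighbour. All 8 members with a summit within 500 bp of the TSS had one. Among genes with a head-to-head neighbour, 8 of 58 members (13.8%) had such a summit, against 14.5% of all 5052 such genes, so the share was close to the background. Among genes without a neighbour the count was 0 of 15 members, against 6.45%. Of the 35 peaks, 15 had the summit between head-to-head starts of any genes, members or not (42.9%), against 8.80% of the list. Among summits within 500 bp of a TSS the share was 15 of 30 (50%), against 236 of 1080 (21.9%). Of these 15 peaks, 8 lay within 1 kb of a member.

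Base composition at the summits was low in GC. Within 50 bp of the summit the median GC content was 27.7% for the 35 peaks, 25.7% for the 11 within 1 kb and 23.3% for the 8 within 500 bp of a member's TSS, against 33.7% for all 2682. In the 25 bp just before the summit, on the plus strand, these 8 averaged 21.0% ± 9.01 (SD over 8 summits), against 36.1% for the other 1072 summits within 500 bp of a TSS. The effect of base composition on the signal was not tested.

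**Figure D3:**
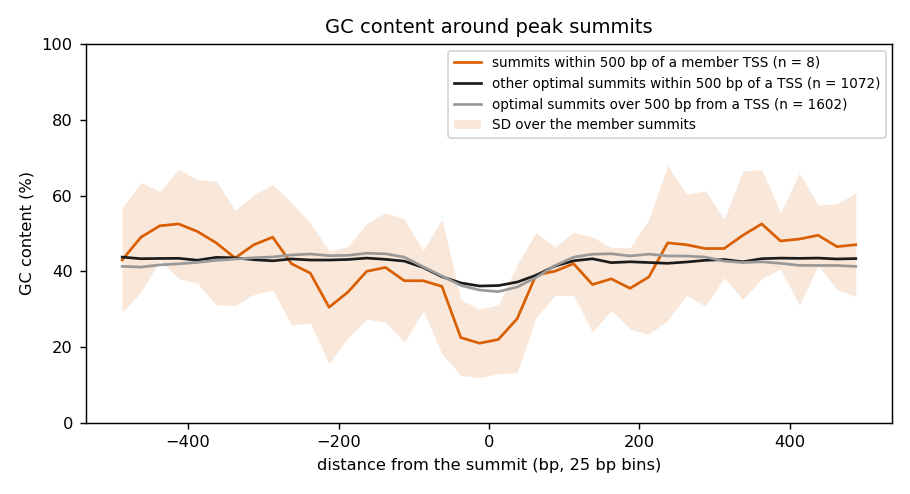
Mean GC content (%) in 25 bp bins around peak summits (plus strand), for the 8 summits within 500 bp of a member's TSS, with a band of 1 SD over summits, and for the other pooled summits near to or over 500 bp from a TSS. The members' line falls to 21.0% at the summit, where the other summits near a TSS have 36.1%.

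A set of 9 short motifs was searched on both strands within 50 bp of the summits. The core bound by Sim with Tango is ACGTG, and the E-box CACGTG contains it. From promoter elements of the fly came the DRE core TATCGATA, the shorter CGATA inside it, promoter Motif 1 (GGTCACACT) and the repeat GAGAG. The homeodomain core TAATTA was searched as well, and so were the words CAGCTG, a palindrome, with ACAGTG beside it. The Sim core ACGTG was present at 3 of 35 peaks (8.57%, 95% exact interval 1.80 to 23.1%), against 7.27% of all 2682. At mRpL24 it lay within 50 bp of the summit, as the sequence above shows in reverse complement. At mRpS10, mRpL41, mRpL23 and mRpL32, the members with the nearest TSS, none of the 9 motifs was within 50 bp. GAGAG was present at 4 of 35 (11.4%), against 12.8%. CAGCTG was present at none of 35, which by the exact interval allows a share of up to 10%, against 2.72%.

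In the promoters themselves, from 250 bp before to 50 bp after the TSS, the motif of the 9 whose share was furthest from its background was CAGCTG. It was present in 40 of 73 members' promoters (54.8%, 95% exact interval 42.7 to 66.5%), against 17.7% of all promoters of the same length. Members and motifs were chosen with earlier results of these data known, so the interval is no test of this difference. It was present in 5 of the 8 promoters with a summit within 500 bp and in 35 of the 65 without one (53.8%). TATCGATA was present in 15 of 73 (20.5%), against 9.36%, and CGATA in 58.9%, against 47.4%. GGTCACACT was present in 11.0%, against 6.05%, and GAGAG in 16.4%, against 29.7%. ACGTG was present in 24.7%, against 23.2%. The median GC content of the members' promoters was 34.7%, against 38.0% for all genes.

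The ranked lists, which also hold peaks below the IDR threshold, gave a value for most promoters. The strongest ranked peak within 500 bp of a TSS was found for 65 of 73 members in the pooled list, for 56 in replicate 1 and for 60 in replicate 2. Of all 13945 genes, 11578 had one in the pooled list, 9976 in replicate 1 and 9836 in replicate 2. Genes without such a peak are left out of the medians. The pooled median was 26.1 for members, against 26.7 for all genes and 62.6 for the genes of the cytoplasmic ribosome. In replicate 1 the medians were 14.0 for members, 15.6 for all genes and 29.5 for cytoplasmic ribosomal protein genes. In replicate 2 they were 18.0, 16.9 and 34.9. Among genes with a value, the members' medians thus lay close to those of all genes in each list.

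The 100 genes with the highest pooled promoter signal, out of 13945, included 4 of the 73 members. These were mRpS23 at rank 4, mRpS10 at 7, mRpL41 at 10 and mRpL23 at 51. A peak within 500 bp of the TSS of 2 genes gives its value to both. Head-to-head neighbours can thus share it, as at mRpS23, whose peak lay nearer to CenG1A. The group was proposed with the peaks of these lists known, so the count of 4 is a description. Among the highest 10% of all genes were 9 members, or 12.3% of the members, which is near the share of all genes that the cut sets. The count was 10 in replicate 1 and 9 in replicate 2, with 8 in both. After the 8 genes named above, the next was mRpS16 at 54.9, whose ranked peak was not in the optimal list.

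**Figure D4:**
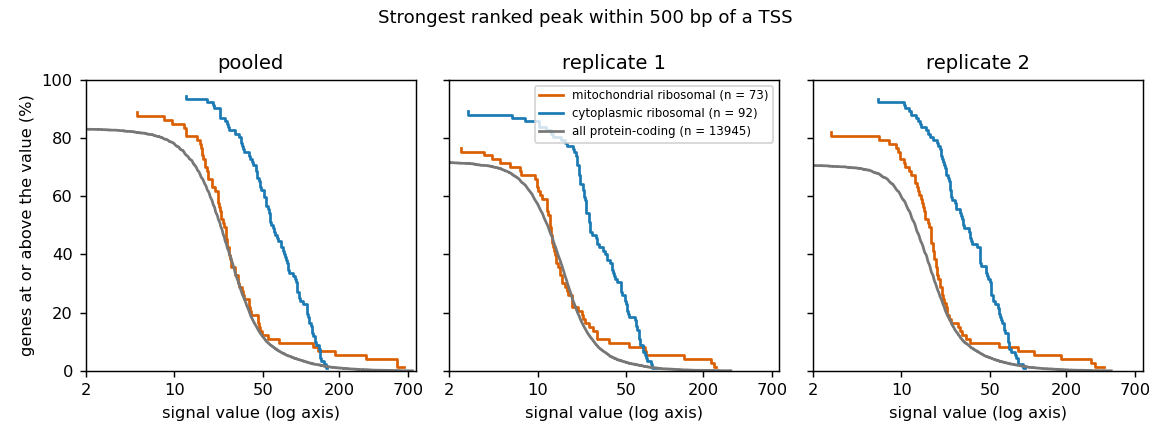
Share of genes (%) whose strongest ranked peak within 500 bp of a TSS reached at least the signal value on the log x axis, for 73 mitochondrial ribosomal protein genes, 92 cytoplasmic ones and all 13945 protein-coding genes, in the pooled list and each replicate. Members follow all genes up to about 50 in the pooled list and exceed both other curves at high values. They end at 643 (pooled), 254 (replicate 1) and 397 (replicate 2), where all genes reach 755, 333 and 452.

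Genes of the cytoplasmic ribosome gave a different picture. A summit lay within 1 kb of 54 of 92 (58.7%) and within 5 kb of 61 (66.3%). The 48 summits within 500 bp of a TSS and nearest to such a gene lay at a median of 19.5 bp from it, 42 of them within 50 bp, with a median GC content of 48.5% and a median signal value of 93.0. All 1080 summits within 500 bp of a TSS lay at a median of 133 bp from it, 17.2% of them within 50 bp. Their median GC content was 34.7% and their median signal value 77.4. The 4 summits nearest to a mitochondrial ribosomal protein gene lay at a median of 117.5 bp, nearer to that of all summits, and none lay within 50 bp. They had 23.3% GC and a median signal value of 448. These 4 signal values ran from 66.5 to 575, and all 8 summits within 500 bp of a member's TSS had a median of 255. The values are not tested, since the peaks were chosen by their place. The members were also proposed because of peaks seen in these lists.

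Other nuclear genes of mitochondrial translation and respiration are set beside all genes, of which 30.0% had a summit within 5 kb, 16.5% within 1 kb and 9.37% within 500 bp of the TSS. Of 16 mitochondrial tRNA ligase genes, 8 had a summit within 5 kb, 1 (LeuRS-m) within 1 kb and none within 500 bp of the TSS. Of 9 mitochondrial translation factor genes found in the annotation, mIF3 and mRF1 had a summit within 5 kb and none had one within 1 kb. Of 12 genes of mitochondrial genome maintenance and transcription, PolG2, mTerf5 and mtSSB had a summit within 5 kb. mtSSB, the mitochondrial single-stranded DNA-binding protein, had the nearest TSS to a peak of 100.3 that both replicates' lists held. Of 88 respiratory chain genes, 25 had a summit within 5 kb (28.4%) and 9 within 1 kb, and 5 (5.68%) had one within 500 bp of the TSS, namely ND-51, ND-24, ND-ASHI, ND-MWFE and ATPsynCF6. The mitochondrial ribosome genes tko and bonsai, which carry other symbols, had none.

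**Figure D5:**
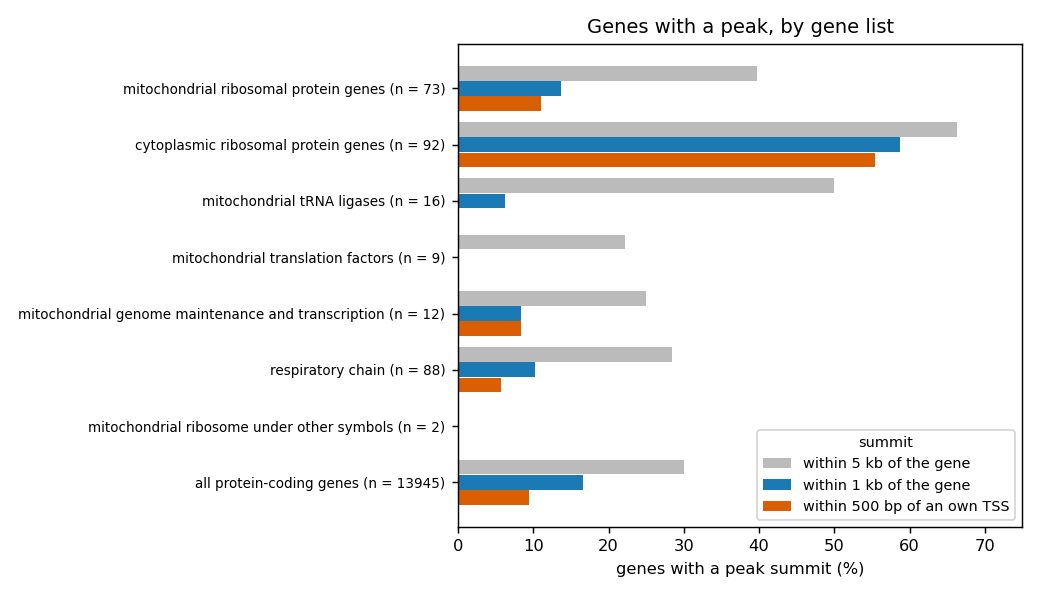
Share of genes (%) with a pooled summit within 5 kb, within 1 kb or within 500 bp of an own TSS, by gene list, with the number of genes in brackets. Mitochondrial ribosomal protein genes stand at 13.7% within 1 kb, near all genes at 16.5%, and cytoplasmic ones at 58.7%.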

How the data were processed

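Peak lists from 2 immunoprecipitated embryo samples were used as the authors deposited them in dm6 coordinates, per the labels. For the aligner, the peak caller, the normalization and the depth the entry is "not given in the sources used here", so no interval on a signal value was computed. The deposited score of a peak is the scaled IDR, with a lowest value of 830 in the thresholded lists, and the deposited signal value is the strength the authors' peak caller gave it. A further 8 columns of the pooled ranked list, which describe the compared sets of calls, were not used. Signal values were ranked within a list, and were set side by side across lists without a test.

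Gene models came from Ensembl release 115 (BDGP6.54) and bases from RefSeq Release 6, on 6 chromosome arms. Every protein-coding transcript start was taken as a TSS. A summit is the peak start plus its offset. A pooled peak counted as supported by a replicate when it overlapped a thresholded peak of that replicate by at least 1 bp. The rule for named genes was that members with the nearest TSS to a pooled summit within 5 kb and with support in both replicates are given with values, that other members with a summit within 5 kb are given with the gene whose TSS is nearest, and that members without one are listed once. Members, gene lists and motifs were chosen with earlier results of these data known, so members' counts stand beside those of all 13945 protein-coding genes without a test. Motif shares carry 95% exact (Clopper-Pearson) intervals that cover counting error alone. The steps that find the nearest TSS and the overlap of peaks were run on simulated peaks placed at known starts. The counting of genes was not tested in this way. Python 3.11.15, numpy 2.4.6, pandas 2.3.3, scipy 1.17.1 and matplotlib 3.10.9 were used. Alternatives were the conservative list, each replicate alone, stronger peaks, whole peak intervals, merged peaks, 1 TSS per gene, a stricter overlap and other peak or motif windows.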

Additional observations from a re-analysis of the deposited data

How the results depend on the processing

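Counts of members were recomputed under 32 alternatives, and 30 stayed within 1.5 times the reported count. With 1 replicate left out, members with the nearest TSS to a summit numbered 2 to 3 instead of 4, the lower number without replicate 1, and members with a summit within 5 kb numbered 15 to 21 instead of 29, the lower number without replicate 2. The shares of all genes fell as well, to 8.56% without replicate 1 and 5.77% without replicate 2 for the nearest TSS, and to 21.9% and 15% within 5 kb, where members had 28.8% and 20.5%. Within 500 bp of an own TSS members had 9.59% without replicate 1, without replicate 2 and with peaks of at least the median signal value. All genes had 6.43%, 4.17% and 5.45%. Within 1 kb members had 11.0%, 9.59% and 12.3% in these settings, against 11.6%, 7.87% and 9.87%. With the conservative list, whole peak intervals and merged peaks the members' 1 kb share stayed below that of all genes. Of the medians, 2 of 6 alternatives stayed within the spread between replicates. For the signal value this spread was an SD of 10.3 between the medians in the replicates' ranked lists, 43.9 and 58.4. It is on the scale of those lists and does not measure the spread of the pooled median. The pooled median signal value ranged from 97.6 to 448 as peaks were restricted to those nearest a member's TSS. Of 36 alternatives for the motif shares, 26 stayed within the 95% exact interval of the reported share. No paired analysis was possible because the series holds 1 group. With 2 replicates, unknown depth and no control chromatin analysed here, a missing peak does not show missing binding, and the share of signal that the tag or antibody gives without Sim was not measured.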
